A study of Homo sapiens with 6 samples.

Results

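The genes described here are the nuclear-encoded subunits of the respiratory chain and of the ATP synthase, together with the factors that assemble them. They were chosen by symbol: every listed gene whose name begins with NDUF (complex I), SDHA to SDHD or SDHAF (complex II), UQCR or UQCC (complex III), COX and a digit (complex IV) or ATP5 (complex V), and the 2 cytochrome genes CYC1 and CYCS. This gave 116 of the 12227 listed genes: 110 protein-coding genes, 5 processed pseudogenes and 1 long noncoding RNA gene. All 116 were tested. RNA sequencing gave their levels in PC3, an established human prostate cancer cell line, in cells with control short hairpin RNA (3 libraries, genotype labelled WT) and in cells with short hairpin RNA against VprBP (3 libraries, labelled VprBP knockdown). All cells were grown in DMEM with fetal bovine serum, and no agent other than the hairpins is labelled. VprBP, the product of DCAF1, is a substrate receptor of a cullin-RING ubiquitin ligase to which kinase activity on histones has also been ascribed. The comparison asks which transcripts differ when VprBP is depleted. The hairpin sequences and the way they were delivered are not given in the labels. The labels also do not say whether the numbers 1 to 3 stand for hairpins, cultures or repeat libraries, so the p-values below reflect the spread among these 6 samples alone, and that spread may be technical.

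DCAF1 had values of 79.4, 78.5 and 78.7 in control replicates 1 to 3 and 38.5, 41.1 and 40.2 in knockdown replicates 1 to 3. All 3 knockdown libraries lay below all 3 control libraries, and 50.6% of the control level remained (log2 fold change -0.97, SE 0.05, limma adjusted p = 3.56e-11). An exact permutation test, two-sided, gave p = 0.1, the smallest that 3 libraries against 3 allow. The estimated depth was 22981883 to 39633849 reads per library. The epithelial keratin genes KRT7, KRT8, KRT18 and KRT19 and the epithelial adhesion gene EPCAM were all listed. By limma KRT7 rose from 903 ± 14.5 to 1422 ± 43.1, KRT8 from 378 ± 5.07 to 619 ± 9.65, KRT18 from 455 ± 12.6 to 693 ± 15.4 and EPCAM from 251 ± 5.22 to 279 ± 10.5, and KRT19 was not called at 825 ± 26.0 and 829 ± 27.5 (SD, n = 3 each). TMPRSS2, a serine protease gene of prostate epithelium, fell from 31.2 ± 1.31 to 19.5 ± 1.22 (SD, n = 3 each). Of 10 markers of leukocytes, endothelium and fibroblasts, CD68, PECAM1 and COL1A1 were listed, and their summed value was 104 to 106 in control and 70.5 to 78.3 in knockdown libraries. PECAM1 made up most of that difference, at 54.2 ± 1.14 and 23.3 ± 0.695 (SD, n = 3 each), and the part of these markers in the results was not tested. In bulk samples fewer cells of a type and less RNA per cell cannot be told apart. Values are relative to each library's own scale, so a change shared by the whole transcriptome would not be seen.

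The respiratory chain sits in the inner mitochondrial membrane. Complex I takes electrons from NADH and complex II takes them from succinate. Both pass them through ubiquinone to complex III, cytochrome c carries them on to complex IV, and oxygen is the final acceptor. Complexes I, III and IV pump protons, and complex V, the ATP synthase, uses the gradient to make ATP. A few catalytic subunits are encoded in mitochondrial DNA and all others in the nucleus, so that expression of 2 genomes has to be matched. Dedicated assembly factors insert haem, copper, flavin and iron-sulfur groups and join the parts. Many of the nuclear genes are known to be driven by nuclear respiratory factor 1 (NRF1), the ETS factor GABP, YY1 and the oestrogen-related receptor ESRRA with its PGC-1 coactivators.

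The nuclear-encoded respiratory genes moved little, and on the deposited scale about as many rose as fell. Of the 116 genes, 27 rose, 26 fell and 63 were not called at a limma adjusted p under 0.05. Over all listed genes 60.9% were called, 33.0% higher and 27.8% lower, whereas 45.7% of the respiratory genes were called. With median-ratio scaling in place of the deposited scale, 23 respiratory genes rose and 33 fell, beside 3723 and 3717 of all genes. Under that scaling 48.3% of the respiratory genes and 60.8% of all genes were called. The median SE of the log2 fold change was 0.053 for the respiratory genes and 0.062 for all genes, and the median control value was 67.9 against 35.5. The groups did not overlap for 29 higher and 29 lower respiratory genes, beside 35.1% and 29.6% of all genes (64.8% in either direction). No respiratory gene reached a 1.5-fold change in log2(value + 0.5), compared with 11.6% of all genes. Without the added 0.5, the control mean of SDHAF4, a gene of low values, was 1.52 times its knockdown mean. The median absolute log2 fold change was 0.13 for the respiratory genes and 0.21 for all genes, and the signed medians were 0.02 and 0.02, or -0.01 and -0.00 under median-ratio scaling. The values ranged from -0.57 for SDHAF4 to 0.51 for UQCC3. When the change was tested against a fold of 1.2 instead of 0 (limma treat), 3 respiratory genes passed, UQCC3 and COX20 higher and ATP5MC1 lower, beside 19.1% of all genes.

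**Figure D1:**
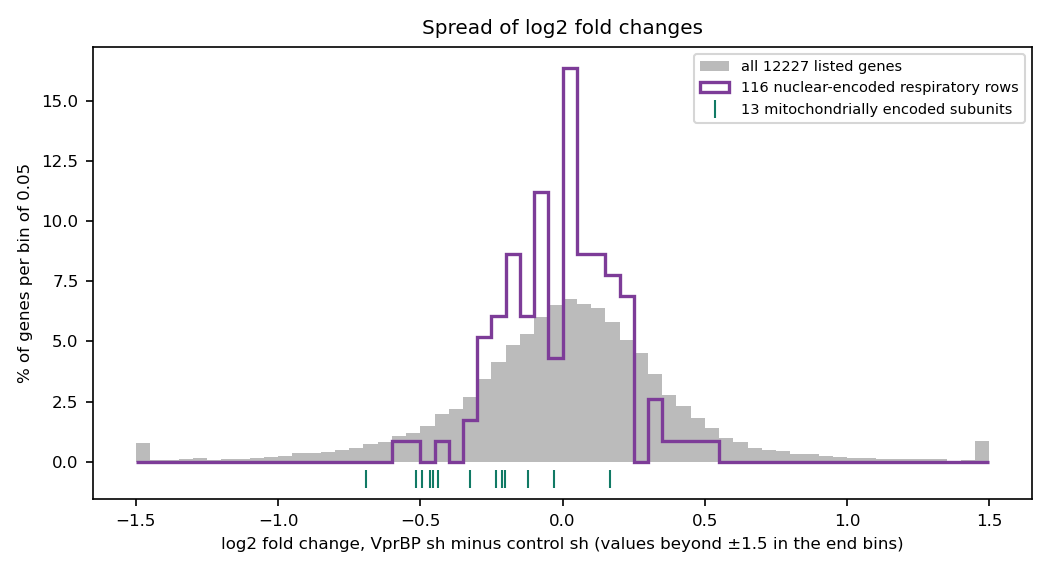
Share of genes (%) per bin of 0.05 in log2 fold change, VprBP sh minus control sh, for all 12227 listed genes (grey) and the 116 nuclear-encoded respiratory genes (purple line), with the 13 mitochondrially encoded subunits as green ticks. The respiratory genes lie between -0.57 and 0.51, and 11 of the 13 mitochondrially encoded subunits were called lower.

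The summed value of all 116 genes was 12270.2 ± 142 in control and 12075 ± 203 in knockdown libraries (SD, n = 3 each), 98.4% of the control level. The sums by complex were 100.2% of control for complex I, 89.0% for complex II, 99.0% for complex III, 101.8% for complex IV, 98.3% for complex V and 92.9% for the cytochrome pair. Groups follow the gene symbols, so the complex III sum leaves out its subunit gene CYC1, which is summed with the cytochrome pair. CYC1 stood at 761 ± 44.4 in control and 696 ± 29.1 in knockdown libraries (SD, n = 3 each). These sums weight genes by their read number and carry no test. The sums of complexes I, III, IV and V overlapped between the groups, and those of complex II and of the cytochrome pair did not.

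**Figure D2:**
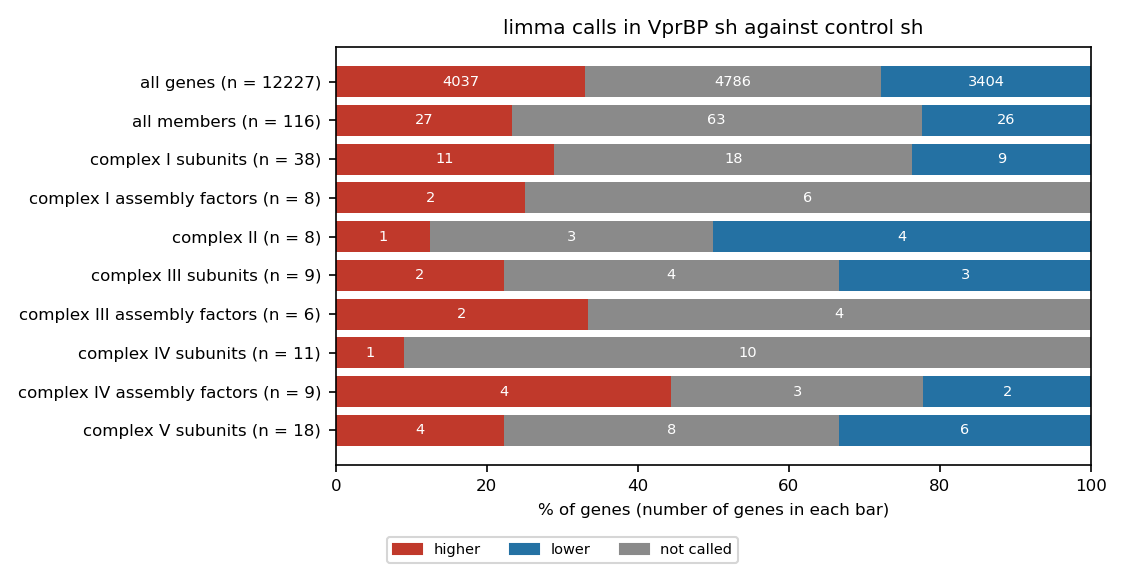
Share of genes (%) called higher (red), not called (grey) or called lower (blue) by limma in VprBP sh against control sh cells, with the number of genes printed in each bar. COX7A2L is counted with the complex IV subunits and ATP5IF1 with those of complex V. Of the 11 complex IV subunit genes 1 was called, and of the 8 complex II genes 5 were called.

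Complex I genes split into higher and lower members. Among the 38 subunit genes 11 increases and 9 decreases were called, and 18 genes stayed short of the threshold. That is 52.6% called, beside 60.9% of all genes. The core subunits encoded in the nucleus form the electron path from NADH to ubiquinone and had no called increase with all libraries by limma or limma-voom, nor one at an unadjusted p under 0.05. NDUFS1, NDUFV1 and NDUFS7 fell, so that 42.9% of the 7 core genes were called. NDUFS1, a large iron-sulfur protein at the NADH end of the complex, had values of 190.3, 189 and 197 in control replicates 1 to 3 and 162, 160.4 and 169.8 in knockdown replicates 1 to 3. Every knockdown library was below every control library (log2 fold change -0.23, SE 0.04, limma adjusted p = 5.53e-05). NDUFV1, which binds NADH and the flavin, had values of 228, 225 and 245 in control replicates 1 to 3 and 202, 196 and 195 in knockdown replicates 1 to 3. Its groups were also separate, with control replicate 3 the highest (log2 fold change -0.24, SE 0.04, limma adjusted p = 5.96e-05). NDUFS7 carries the last iron-sulfur cluster before ubiquinone and had values of 62.2, 58.6 and 60.7 against 55.1, 54.0 and 46.5 in control and knockdown libraries. Here knockdown replicate 3 was the lowest library (log2 fold change -0.22, SE 0.06, limma adjusted p = 0.00421). NDUFV2, a further core gene, had values of 67.9, 71.3 and 70.3 against 74.8, 67.5 and 81.7 and was not called with all libraries (limma adjusted p = 0.185), but was called higher without knockdown replicate 2 (adjusted p = 0.0178). NDUFV2 is uncertain because its processed pseudogene NDUFV2P1 is listed with values of the same order, 42.4 ± 1.46 and 41.6 ± 1.65 (SD, n = 3 each), and reads may be split between them.

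The NDUFB genes encode accessory subunits of the membrane arm. Of 11, NDUFB2, NDUFB3, NDUFB4, NDUFB8 and NDUFB11 rose, NDUFB5 fell and 5 were not called. The called share was 54.5%, beside 60.9% of all genes. The NDUFB8 call was lost, by limma adjusted p, under library-size scaling (0.0597), under median-ratio scaling (0.0599), without control replicate 1 (0.09), without control replicate 3 (0.0544), without knockdown replicate 1 (0.194) and without knockdown replicate 2 (0.0547), and NDUFB6 was called lower without knockdown replicate 1 (0.0411). NDUFB3 had values of 27.6, 27.9 and 28.99 in control replicates 1 to 3 and 35.7, 32.8 and 36.8 in knockdown replicates 1 to 3. The lowest knockdown library was still above the highest control library (log2 fold change 0.31, SE 0.06, limma adjusted p = 3.56e-04). NDUFB4 rose from 116 ± 0.848 to 138 ± 7.93 (SD, n = 3 each; log2 fold change 0.25, SE 0.04, limma adjusted p = 1.22e-04). The control libraries were nearly equal, and the 3 knockdown libraries all lay above them. NDUFB11, at 68.9, 68.4 and 70.4 against 86.8, 80.3 and 77.0, rose with a log2 fold change of 0.23 (limma adjusted p = 6.46e-04). It overlaps RBM10 on the opposite strand, and RBM10 rose too (log2 fold change 0.21). The strand setting of the counting is not known, so reads from the bases that the 2 genes share cannot be told apart. NDUFB9 had the highest control value of the complex, not corrected for transcript length, and was nearly equal in the groups at 299.7 ± 2.78 and 305 ± 6.84 (SD, n = 3 each).

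Of the 14 NDUFA genes, NDUFA6, NDUFA8 and NDUFA11 rose, NDUFA2, NDUFA5, NDUFA7 and NDUFA10 fell, and 7 were not called. The called share was 50.0%, beside 60.9% of all genes. By limma adjusted p the NDUFA11 call was lost without control replicate 1 (0.0542), without control replicate 2 (0.0715) and without knockdown replicate 1 (0.0836), the NDUFA6 call without control replicate 1 (0.0558) and without knockdown replicate 2 (0.0781) and the NDUFA2 call without control replicate 1 (0.118) and without knockdown replicate 3 (0.0822). NDUFA3 was called lower under library-size scaling (0.0485), under median-ratio scaling (0.043) and without control replicate 1 (0.039). NDUFA9 and NDUFAB1 were called higher without knockdown replicate 2, and NDUFA13 without knockdown replicate 3 (0.0212). NDUFA7, an accessory subunit gene, had values of 36.9, 34.2 and 38.6 in control replicates 1 to 3 and 32.3, 30.2 and 28.2 in knockdown replicates 1 to 3. It had the most negative log2 fold change among complex I subunits, and its groups did not overlap (log2 fold change -0.27, SE 0.07, limma adjusted p = 0.00198). NDUFA4 carries a complex I name but its protein is now placed in complex IV. It was not called, at 79.5, 83.6 and 79.2 against 84.3, 79.5 and 81.0 (limma adjusted p = 0.795). Among the accessory NDUFS and NDUFV genes, NDUFS4 and NDUFS5 rose, NDUFV3 fell and NDUFS6 was not called. The NDUFS5 call was lost, by limma adjusted p, under library-size scaling (0.0826), with limma-voom (0.0718), under median-ratio scaling (0.0924), with the replicate block (0.068), without control replicate 1 (0.11), without control replicate 3 (0.0516) and without knockdown replicate 1 (0.115). The NDUFV3 call was lost with the replicate block (0.0554), without control replicate 2 (0.172), without control replicate 3 (0.0807), without knockdown replicate 1 (0.0808) and without knockdown replicate 2 (0.0725). NDUFS4, which encodes a late-joining accessory subunit often affected in Leigh syndrome, had values of 22.3, 24.1 and 22.9 in control replicates 1 to 3 and 26.3, 25.6 and 30.2 in knockdown replicates 1 to 3. All 3 knockdown values exceeded the controls, with the largest in knockdown replicate 3 (log2 fold change 0.24, SE 0.07, limma adjusted p = 0.00945). NDUFC2 rose and NDUFC1 was not called.

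Assembly factors of complex I were mostly not called. By limma NDUFAF6 and NDUFAF8 rose out of 8 NDUFAF genes and none fell. The called share was 25.0%, beside 60.9% of all genes. With limma-voom on estimated reads, and under median-ratio and library-size scaling, 1 fell, NDUFAF7. It alone among the others had an unadjusted limma p under 0.05 (unadjusted p = 0.0456 and adjusted p = 0.0716 by limma, log2 fold change -0.17). NDUFAF3 was called higher, by limma adjusted p, without control replicate 3 (0.0246) and without knockdown replicate 3 (0.0347), and NDUFAF5 without control replicate 2 (0.0236). NDUFAF8, a partner of the factor NDUFAF5, had values of 12.9, 11.4 and 16.6 in control replicates 1 to 3 and 18.4, 18.4 and 14.8 in knockdown replicates 1 to 3. Control replicate 3 lay inside the knockdown range, so the groups overlapped (log2 fold change 0.33, SE 0.12, limma adjusted p = 0.0226). This call rested on single libraries, with adjusted p-values of 0.0758 without control replicate 1, 0.129 without control replicate 2, 0.0999 without knockdown replicate 1 and 0.0842 without knockdown replicate 2. NDUFAF6, needed for biogenesis of a mitochondrially encoded complex I subunit, had values of 18.7, 19.8 and 18.6 against 22.8, 23.2 and 21.7 (log2 fold change 0.24, SE 0.07, limma adjusted p = 0.00585). The groups were separate. NDUFAF6 overlaps CCNE2 on the opposite strand, whose value went from 3.36 ± 0.337 to 16.8 ± 0.592 (SD, n = 3 each), and also TP53INP1 and PLEKHF2. The increase of NDUFAF6 was smaller in these units than that of CCNE2, and the part of CCNE2 reads in it was not tested. The count of higher complex I genes, 13 in all, was 8 without control replicate 1.

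**Figure D3:**
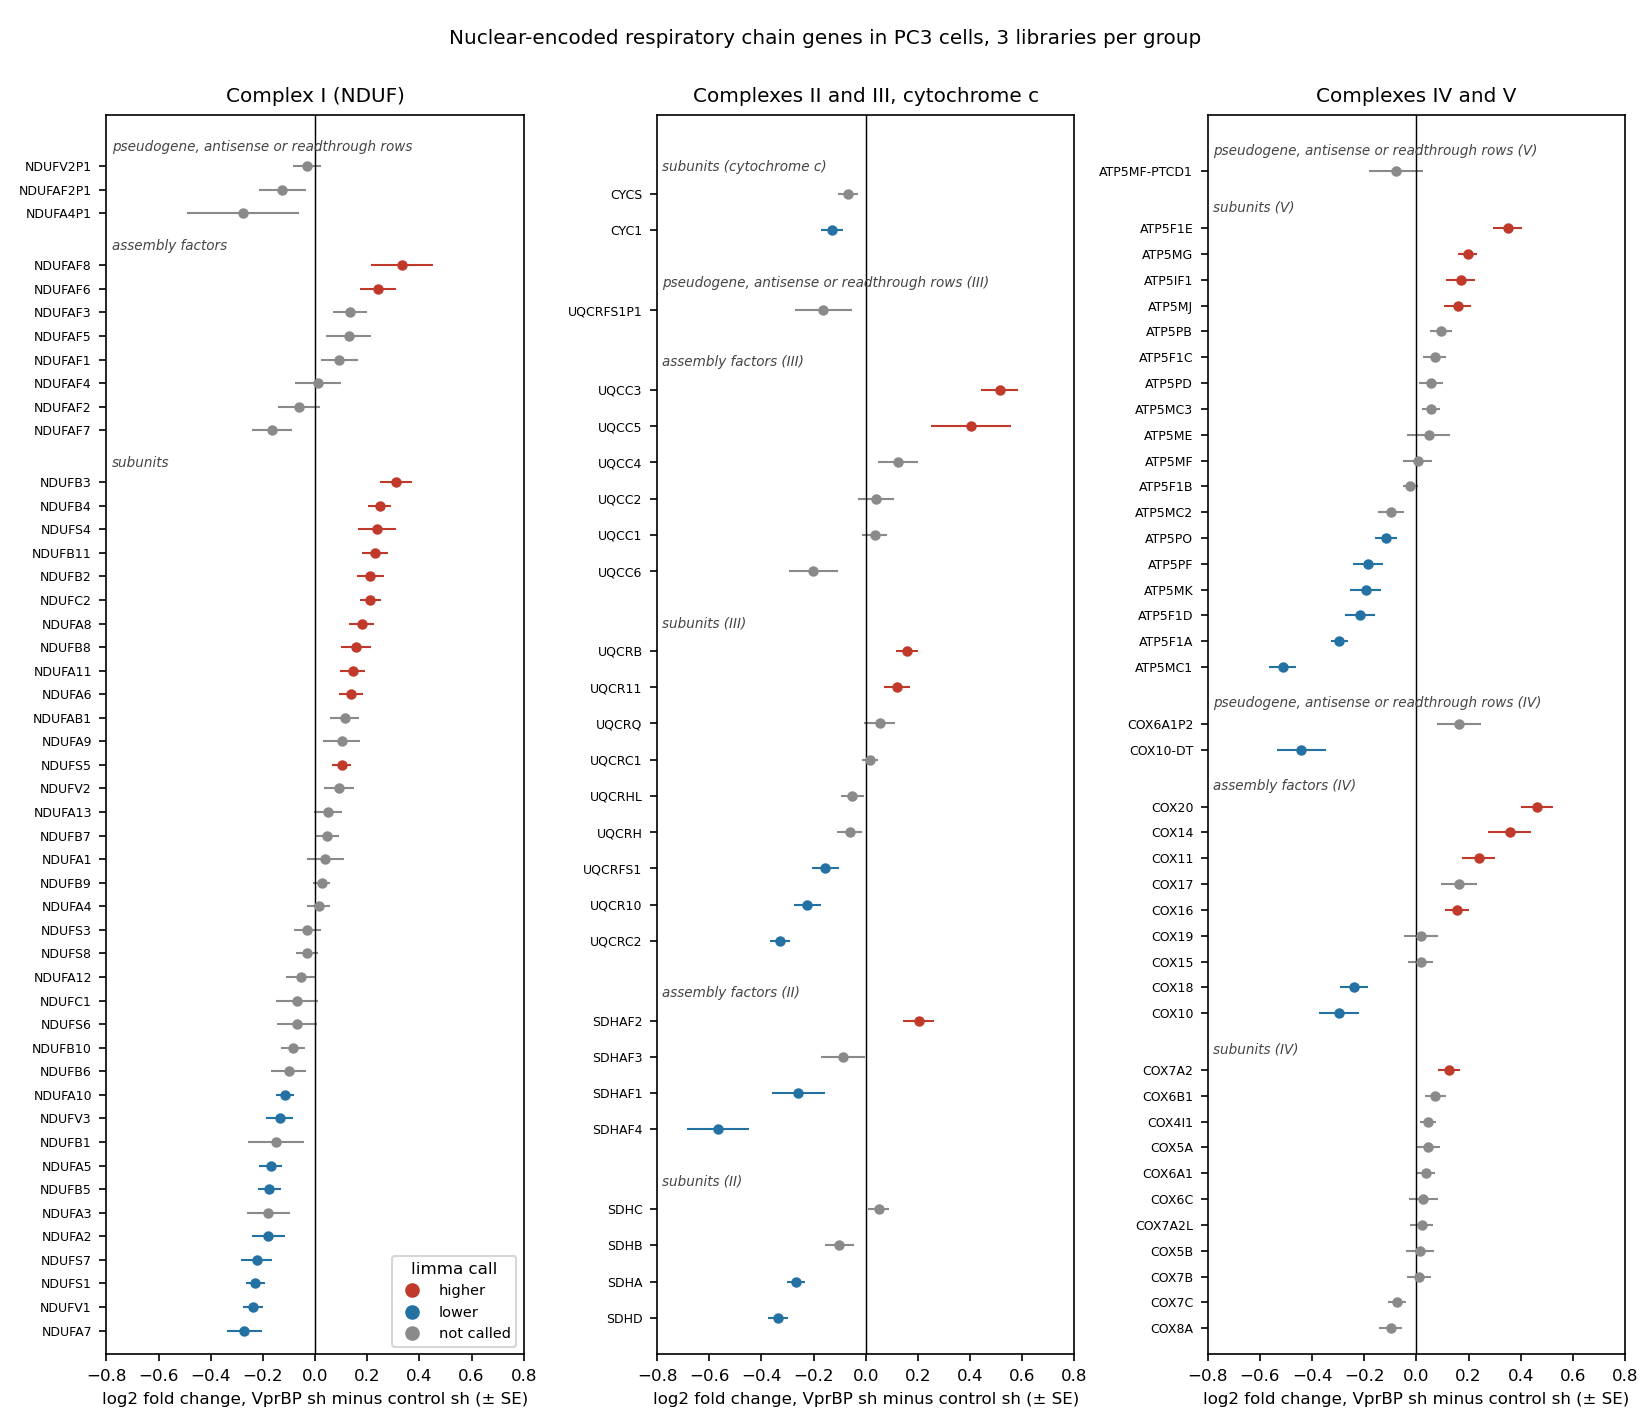
Log2 fold change (VprBP sh minus control sh) ± SE from limma for 115 of the 116 genes, by complex and by role, coloured by call. All values lie within ±0.6, and higher and lower genes occur in each of complexes I to V.

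Among complexes I to V, complex II had the largest share of lower genes. SDHA, SDHD, SDHAF1 and SDHAF4 fell, SDHAF2 rose, and SDHB, SDHC and SDHAF3 were not called. The median of the 8 log2 fold changes was -0.18, and 27.8% of all genes were called lower. Whether that share differs from other gene groups was not tested. SDHA, the flavoprotein that oxidises succinate, had values of 221, 227 and 228 in control replicates 1 to 3 and 183, 190.4 and 187 in knockdown replicates 1 to 3. The gap between the groups was wider than the range within either (log2 fold change -0.27, SE 0.03, limma adjusted p = 4.90e-06). SDHD, one of the membrane anchors that bind haem and ubiquinone, had values of 171, 177 and 168 in control replicates 1 to 3 and 138, 131 and 140.2 in knockdown replicates 1 to 3. No knockdown library came near a control library, and 79.2% of the control level remained (log2 fold change -0.34, SE 0.04, limma adjusted p = 1.67e-06). SDHC, the other anchor, did not follow: its values were 106, 109 and 112 against 115, 111 and 112 (limma adjusted p = 0.289). SDHB, the iron-sulfur subunit, had values of 152, 156 and 141 in control replicates 1 to 3 and 135, 129.7 and 154 in knockdown replicates 1 to 3. Knockdown replicate 3 lay among the controls while the other 2 lay below them, and SDHB was not called (limma adjusted p = 0.125). Without knockdown replicate 3 it was called lower (log2 fold change -0.17, adjusted p = 0.00147), and it was also called without control replicate 3 (adjusted p = 0.0495) and with limma-voom (0.0385).

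The assembly factors of complex II act on SDHA or on SDHB. SDHAF4, which holds flavin-loaded SDHA until it meets SDHB, had the most negative log2 fold change of all 116 genes. Its values were 8.97, 7.94 and 9.55 in control replicates 1 to 3 and 6.28, 6.03 and 5.09 in knockdown replicates 1 to 3, with knockdown replicate 3 the lowest (log2 fold change -0.57, SE 0.12, limma adjusted p = 6.27e-04). SDHAF1, needed for iron-sulfur insertion into SDHB, was lower in the knockdown libraries, at 13.8, 13.4 and 14.6 against 11.9, 13.2 and 9.88 (log2 fold change -0.26, SE 0.10, limma adjusted p = 0.0356). The SDHAF1 call was lost with single libraries left out, with adjusted p-values of 0.0715 without control replicate 1, 0.107 without control replicate 3, 0.0619 without knockdown replicate 1 and 0.175 without knockdown replicate 3. SDHAF2, which promotes attachment of flavin to SDHA, rose, with values of 42.1, 38.0 and 38.9 against 45.4, 43.3 and 48.4 (log2 fold change 0.20, SE 0.06, limma adjusted p = 0.00698). Each of its knockdown libraries lay above all controls. SDHAF3, another SDHB factor, was not called (limma adjusted p = 0.396). On hg38 SDHA (ENSG00000073578.18) spans 218303 to 257082 of chromosome 5 on the plus strand, SDHD (ENSG00000204370.14) spans 112086824 to 112120016 of chromosome 11 on the plus strand, and SDHAF4 (ENSG00000154079.6) spans 70566917 to 70589569 of chromosome 6 on the plus strand.

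Promoter sequence is shown for the 3 complex II genes with the most negative log2 fold changes, SDHA, SDHD and SDHAF4, and for NDUFB4, which rose, because the same motif stands before genes that moved in opposite directions. These 4 were chosen after their values were seen. The sequences come from the RefSeq promoter table (GRCh38.p14), all on the plus strand, and run 5′ to 3′ within the 250 bases before the RefSeq start site. Capitals mark matches, on either strand, to the core of the NRF1 site (GCGCA, any base, then GCGC) or to CCGGAAGT, an ETS site. The windows are chr5:218144-218319, chr11:112086753-112086812, chr6:70566899-70566928 and chr3:120596167-120596292. Those of SDHA and SDHAF4 run into the first bases of the deposited gene, and those of SDHD and NDUFB4 lie before it.
SDHA: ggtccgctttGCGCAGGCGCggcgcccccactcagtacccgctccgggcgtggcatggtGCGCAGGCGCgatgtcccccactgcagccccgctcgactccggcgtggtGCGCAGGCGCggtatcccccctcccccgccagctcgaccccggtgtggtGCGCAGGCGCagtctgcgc
SDHD: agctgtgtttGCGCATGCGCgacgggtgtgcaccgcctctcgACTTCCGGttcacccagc
SDHAF4: ctactgctttGCGCCTGCGCggaggctcgg
NDUFB4: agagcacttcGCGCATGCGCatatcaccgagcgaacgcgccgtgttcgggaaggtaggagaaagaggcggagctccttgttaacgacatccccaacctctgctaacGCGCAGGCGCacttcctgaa

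SDHA held 4 matches to the NRF1 core, all with the same letters and starting at -166, -117, -68 and -19 from the RefSeq start site, SDHD held 1 NRF1 match and 1 ETS match, and SDHAF4 held 1 NRF1 match. NDUFB4 held 2 NRF1 matches in the window shown and another across its start site. Of the 116 genes, 92 had an entry of 250 bases before and 50 bases after a start site. The NRF1 core stood in 24 of them (26.1%), compared with 14.1% of the 9422 listed genes with an entry and 6.98% of all 27305 genes in the table. It stood in 6 of 21 higher genes, 7 of 23 lower genes and 11 of 48 genes not called. The ETS letters stood in 17 of 92 (18.5%, against 10.7% and 4.95%): 2 of 21 higher genes, 7 of 23 lower genes and 8 of 48 not called. A YY1 site, AAGATGGCG, stood in 13 of 92 (14.1%, against 4.92% and 2.14%): 4 of 21 higher, 5 of 23 lower and 4 of 48 not called. Both strands were searched. COX10 and COX10-DT, both among the lower genes, share an ETS match and a YY1 match at the same bases. Each of these shared sites was counted for both genes. These are letter matches only, and no binding was measured.

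Of 9 UQCR subunit genes in complex III 55.6% were called, beside 60.9% of all genes. UQCRC2, UQCR10 and UQCRFS1 fell, UQCRB and UQCR11 rose, and 4 were not called. Of those 4, UQCRQ was called higher, by limma adjusted p, without control replicate 3 (0.0478). Of its 6 assembly factors UQCC3 and UQCC5 rose, and with all libraries on the deposited scale none was called lower by limma. For these factors the called share was 33.3%, beside 60.9% of all genes. UQCRC2, a core protein of the matrix side, had values of 219, 217 and 221 in control replicates 1 to 3 and 172, 169 and 183 in knockdown replicates 1 to 3. The groups were far apart for their spread (log2 fold change -0.33, SE 0.04, limma adjusted p = 1.33e-06), whereas its partner UQCRC1 had values of 359, 361 and 360.2 against 374, 361 and 358 and was not called (limma adjusted p = 0.68). UQCRFS1, the Rieske iron-sulfur protein, was lower in all knockdown libraries, at 122, 118 and 115 against 108, 97.1 and 114 (log2 fold change -0.16, SE 0.05, limma adjusted p = 0.0156). Its call was lost on leaving out a library, with adjusted p-values of 0.0811 without control replicate 1 and 0.106 without knockdown replicate 2. UQCR10, a small subunit, fell from 62.5 ± 3.49 to 53.4 ± 0.279 (SD, n = 3 each; limma adjusted p = 0.00106). The other direction was taken by UQCRB, a subunit close to a ubiquinone site, with values of 240.3, 239 and 263 against 273, 268 and 289 (log2 fold change 0.16, SE 0.04, limma adjusted p = 0.00347). UQCR11 rose by a log2 fold change of 0.12 (limma adjusted p = 0.0419), a call lost with adjusted p-values of 0.0572 without control replicate 1, 0.134 without control replicate 2, 0.075 without control replicate 3, 0.194 without knockdown replicate 1 and 0.0839 without knockdown replicate 2, and also under median-ratio scaling (0.103), library-size scaling (0.097) and limma-voom (0.078). UQCRH, the hinge protein, and its near-identical copy UQCRHL were not called, at 84.3 ± 2.49 and 80.8 ± 4.75 and at 70.5 ± 1.27 and 68.0 ± 1.81 in control and knockdown libraries (SD, n = 3 each), and their reads may be split.

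UQCC3, a factor for cytochrome b stability and complex III assembly, had the largest positive log2 fold change of all 116 genes. Its values were 26.0, 25.6 and 28.7 in control replicates 1 to 3 and 40.3, 40.7 and 34.4 in knockdown replicates 1 to 3. Every knockdown library exceeded every control, with knockdown replicate 3 the lowest of its group (log2 fold change 0.51, SE 0.07, limma adjusted p = 1.24e-05). UQCC3 (ENSG00000204922.5) spans 62670273 to 62673686 of chromosome 11 on the plus strand and overlaps LBHD1 on the opposite strand, which rose as well, from 6.37 ± 1.09 to 9.25 ± 0.623 (SD, n = 3 each). UQCC5 had small values of 2.92, 3.07 and 4.05 against 4.63, 4.81 and 4.22 (log2 fold change 0.40, SE 0.15, limma adjusted p = 0.0326). Its call was lost with adjusted p-values of 0.116 without control replicate 1, 0.0885 without control replicate 2, 0.0858 without knockdown replicate 1 and 0.099 without knockdown replicate 2. UQCC5 overlaps PBRM1 and NT5DC2 on the opposite strand. PBRM1 rose from 81.5 ± 2.44 to 98.6 ± 2.44 and NT5DC2 fell from 256 ± 12.9 to 216 ± 10.6 (SD, n = 3 each). The part of their reads in the UQCC5 values was not tested. UQCC6 had an unadjusted p of 0.048 and was not called with all libraries on the deposited scale, nor were UQCC1, UQCC2 and UQCC4. UQCC6 was called lower, by limma adjusted p, under median-ratio scaling (0.0469) and without knockdown replicate 1 (0.0279). The count of higher complex III genes, 4 in all, was 2 without control replicate 1, control replicate 2, knockdown replicate 1 or knockdown replicate 2, and 2 with the replicate number as a block. CYC1, the cytochrome c1 subunit of complex III, had values of 789.5, 710.2 and 785 in control replicates 1 to 3 and 705, 719 and 663 in knockdown replicates 1 to 3. Control replicate 2 lay inside the knockdown range (log2 fold change -0.13, SE 0.04, limma adjusted p = 0.0125), and adjusted p-values were 0.0872 without control replicate 1 and 0.0637 without control replicate 3. CYCS, cytochrome c itself, had values of 438, 441 and 429.8 in control replicates 1 to 3 and 411, 395 and 445 in knockdown replicates 1 to 3 and was not called (limma adjusted p = 0.146), but it was called lower without knockdown replicate 3 (adjusted p = 0.00336), under median-ratio scaling (0.0486), library-size scaling (0.0495) and with limma-voom (0.036).

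Few structural subunits of complex IV were called. COX7A2 was the only one called by limma among 10 subunit genes and the supercomplex factor COX7A2L, beside 60.9% of all genes, and it rose. None was called lower on the deposited scale, where COX8A had an unadjusted p of 0.0381 and COX7C one of 0.0519. COX7C and COX8A were both called lower under median-ratio scaling (limma adjusted p = 0.0207 and 0.0209), library-size scaling and limma-voom. This brought the lower genes of complex IV from 3 to 5. COX7C was also called lower without knockdown replicate 3 (adjusted p = 0.0383). COX8A was called lower without control replicate 2 (0.0324) or knockdown replicate 1 (0.0177). On the deposited scale with all libraries, the log2 fold changes of COX7C and COX8A were -0.07 and -0.10. COX7A2, the subunit isoform found in most tissues, rose, with values of 75.8, 71.6 and 74.2 in control replicates 1 to 3 and 80.7, 80.7 and 80.4 in knockdown replicates 1 to 3. The knockdown libraries were almost identical and all above the controls (log2 fold change 0.12, SE 0.04, limma adjusted p = 0.0178). That call was lost without control replicate 2 (adjusted p = 0.0729), under median-ratio scaling (0.0537) and with limma-voom (0.0507). COX4I1, the common isoform of a subunit that joins early in assembly, had values of 280.4, 280.3 and 283 in control replicates 1 to 3 and 296, 289 and 285 in knockdown replicates 1 to 3. The knockdown libraries lay above the controls by a margin too small to be called (log2 fold change 0.04, limma adjusted p = 0.247). COX6A1, COX6B1 and COX7B had log2 fold changes of 0.04, 0.07 and 0.01, and COX7A2L one of 0.02. The tissue-restricted partners COX4I2, COX6A2, COX6B2, COX7A1, COX7B2 and COX8C, and NDUFA4L2, were not among the listed genes and were not analysed here.

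Of the 9 assembly factors of complex IV 66.7% were called, beside 60.9% of all genes: COX11, COX14, COX16 and COX20 rose, COX10 and COX18 fell, and COX15, COX17 and COX19 were not called. COX17 was called higher, by limma adjusted p, without control replicate 2 (0.0124). COX20, a chaperone of the mitochondrially encoded subunit MT-CO2, had values of 36.0, 38.5 and 36.8 in control replicates 1 to 3 and 52.5, 47.0 and 54.7 in knockdown replicates 1 to 3. The groups were well apart (log2 fold change 0.46, SE 0.06, limma adjusted p = 6.02e-06). COX20 (ENSG00000203667.10) spans 244835616 to 244845057 of chromosome 1 on the plus strand and overlaps HNRNPU on the opposite strand, whose value went from 615 ± 24.3 to 685 ± 5.03 (SD, n = 3 each). COX14, which couples synthesis of MT-CO1 to assembly, had values of 13.8, 12.9 and 13.2 against 17.2, 15.9 and 18.4 and rose (log2 fold change 0.36, SE 0.08, limma adjusted p = 0.00125). COX11, a copper donor to MT-CO1, rose from 64.6 ± 2.26 to 76.5 ± 8.34 (SD, n = 3 each; limma adjusted p = 0.00355), with knockdown replicate 3 the highest. COX16 rose by a log2 fold change of 0.16 (limma adjusted p = 0.00819). The lower pair was COX10 and COX18. COX10 makes haem O, the precursor of the haem A of complex IV, and had values of 28.8, 25.6 and 24.4 in control replicates 1 to 3 and 21.1, 19.8 and 22.9 in knockdown replicates 1 to 3. All knockdown libraries lay below the controls (log2 fold change -0.30, SE 0.08, limma adjusted p = 0.00318). Its divergent noncoding neighbour COX10-DT, listed by the same symbol rule, fell too, from 14.8 ± 0.626 to 10.8 ± 1.14 (SD, n = 3 each; log2 fold change -0.44, SE 0.09, limma adjusted p = 6.41e-04). These genes lie on opposite strands of chromosome 17. COX10-DT ends at 14069495 and COX10 starts at 14069490, so by these coordinates only a few bases are shared. COX18, which inserts MT-CO2 into the membrane, had values of 40.6, 39.2 and 38.1 against 33.6, 33.7 and 32.3 (log2 fold change -0.24, SE 0.05, limma adjusted p = 0.00125).

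**Figure D4:**
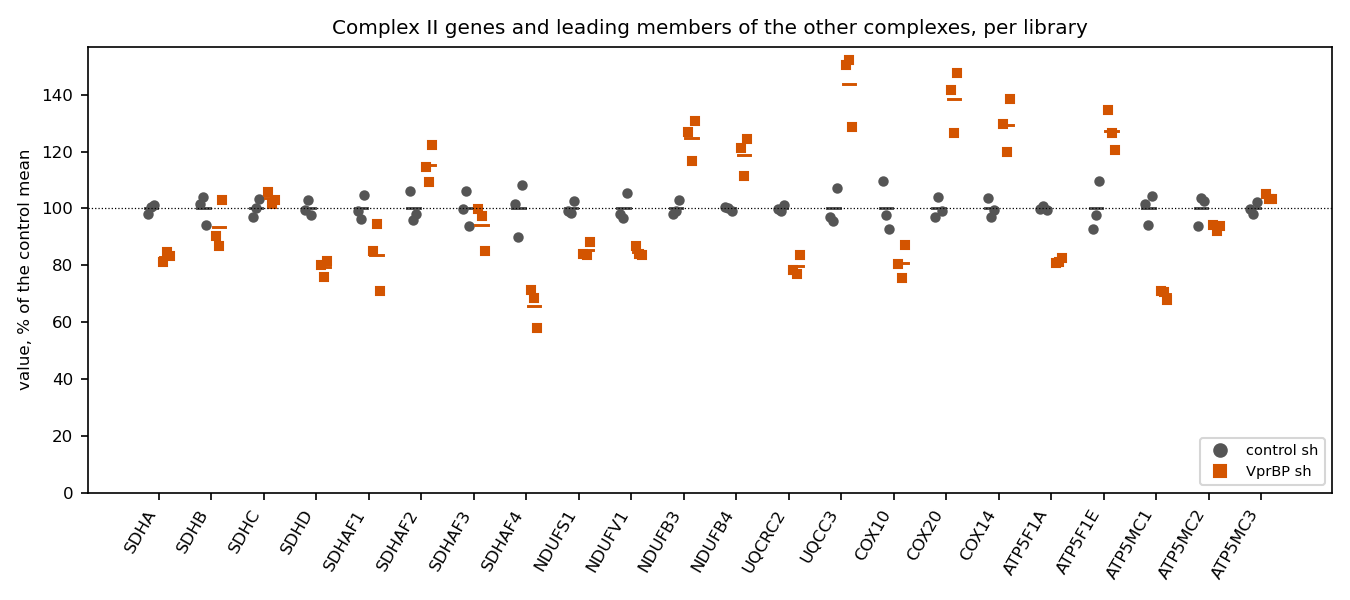
Value in each library as % of the control mean for the 8 complex II genes and leading genes of the other complexes. Grey circles are the 3 control sh libraries, orange squares the 3 VprBP sh libraries in the order of their numbers, and short lines group means. SDHA, SDHD, ATP5F1A and ATP5MC1 lie below all controls in every VprBP sh library, and UQCC3, COX20 and COX14 above them.

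In complex V, subunits of the same part of the enzyme went different ways. Counting 17 subunit genes and the inhibitor gene ATP5IF1, 4 were called higher, 6 lower and 8 neither way. In all 55.6% were called, beside 60.9% of all genes. ATP5F1A, the alpha subunit of the catalytic head, had values of 342, 346 and 341 in control replicates 1 to 3 and 277, 278 and 284 in knockdown replicates 1 to 3. The drop was close to equal in the 3 knockdown libraries (log2 fold change -0.30, SE 0.03, limma adjusted p = 5.39e-07). ATP5F1B, the catalytic beta subunit that alternates with alpha, was not called, at 1276, 1267 and 1265 in control replicates 1 to 3 and 1250.1, 1222 and 1274 in knockdown replicates 1 to 3 (limma adjusted p = 0.491). The small stalk subunits ATP5F1D and ATP5F1E moved in opposite directions. ATP5F1D fell, at 87.7, 92.0 and 92.3 against 85.8, 78.4 and 70.7 (log2 fold change -0.21, SE 0.06, limma adjusted p = 0.00412), and ATP5F1E rose, at 107, 113 and 127 against 156, 146 and 139 (log2 fold change 0.35, SE 0.06, limma adjusted p = 4.79e-05). In the peripheral stalk ATP5PF and ATP5PO fell, and ATP5PB and ATP5PD were not called. The ATP5PO call was lost, by limma adjusted p, with the replicate block (0.0554), without control replicate 2 (0.135) and without knockdown replicate 2 (0.125), and the ATP5PF call without control replicate 3 (0.0759). ATP5PB was called higher without control replicate 2 (0.0378) and without knockdown replicate 2 (0.011). ATP5PF overlaps GABPA on the opposite strand. Among the membrane subunits ATP5MG and ATP5MJ rose and ATP5MK fell, with log2 fold changes of 0.20, 0.16 and -0.19. The ATP5MJ call had adjusted p-values of 0.0945 without control replicate 1 and 0.0771 without knockdown replicate 1. ATP5IF1, which blocks reverse action of the enzyme, rose from 35.8 ± 2.03 to 40.3 ± 0.681 (SD, n = 3 each; limma adjusted p = 0.0165), a call with adjusted p-values of 0.0749 without control replicate 1, 0.0586 without control replicate 2 and 0.0564 without knockdown replicate 1. The count of higher complex V genes, 4 in all, was 2 without control replicate 1 or knockdown replicate 1.

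The c ring of the ATP synthase is built from a protein whose mature form is the same whichever of 3 genes, ATP5MC1, ATP5MC2 or ATP5MC3, makes it. ATP5MC1 had values of 69.9, 64.7 and 71.8 in control replicates 1 to 3 and 48.7, 48.7 and 46.7 in knockdown replicates 1 to 3. All knockdown libraries were close to each other and well below the controls, and 69.8% of the control level remained (log2 fold change -0.51, SE 0.05, limma adjusted p = 2.54e-07). ATP5MC2 had values of 55.1, 61.0 and 60.2 against 55.4, 54.1 and 55.2 (log2 fold change -0.10, limma adjusted p = 0.11), but was called lower without control replicate 1 (adjusted p = 0.0377) and under median-ratio scaling (0.046). ATP5MC3 had values of 184, 181 and 188 against 194, 191 and 190.0 and was not called (log2 fold change 0.06, limma adjusted p = 0.174). The differences between these 3 changes were not tested. ATP5MC1 (ENSG00000159199.14) spans 48892765 to 48895871 of chromosome 17 on the plus strand.

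The 7 remaining rows were the processed pseudogenes NDUFA4P1, NDUFAF2P1, NDUFV2P1, COX6A1P2 and UQCRFS1P1, the readthrough ATP5MF-PTCD1 and COX10-DT. Of these COX10-DT was the only one called with all libraries. NDUFA4P1 was called lower, by limma adjusted p, without control replicate 2 (0.035), and COX6A1P2 higher without control replicate 3 (0.0221). In all, 32 of the 116 genes overlap a listed gene on the opposite strand. Beside those named above, NDUFB8 overlaps HIF1AN, which rose (log2 fold change 0.18), and ATP5PO overlaps LINC00649, which fell (-0.43). NDUFB3, which rose, overlaps HYCC2, which fell (-0.26). NDUFB2, which rose, overlaps BRAF on the opposite strand, which fell (-0.59), and ADCK2 on the same strand, which rose (0.44). The part of such shared reads in the calls was not tested.

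Libraries of a group differed in how they ranked for these genes. Control replicate 3 was the highest control library for 58 of the 116 genes (50.0%) and for 33.8% of all genes. Knockdown replicate 1 was the highest knockdown library for 64 genes (55.2%, against 28.7% of all genes), and knockdown replicate 3 the lowest for 57 (49.1%, against 36.5%). The part of this in the calls was not tested beyond leaving out each library. With 1 library left out, 18 to 29 respiratory genes were called higher and 23 to 27 lower.

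Genes that serve the same complexes under other names were mixed too. Over all genes 60.9% were called. The share called was 42.9% for the further complex I assembly genes and 45.0% for those of complex IV. It was 46.2% for coenzyme Q synthesis, 64.3% for iron-sulfur cluster assembly and 53.8% for the tricarboxylic acid cycle. Of 14 further complex I assembly genes 2 were called higher and 4 lower (median log2 fold change -0.00). ECSIT, a complex I assembly factor also known from immune signalling, and TMEM186 fell (-0.42 and -0.40 on the log2 scale), and TMEM70 and LYRM2 rose (0.38 and 0.29). Of 20 further complex IV assembly genes 6 were called higher and 3 lower (median 0.01). SCO2, a copper chaperone for MT-CO2, rose from 17.6 ± 2.23 to 24.1 ± 1.64 (SD, n = 3 each; limma adjusted p = 3.79e-04), and COA5 and COA6 fell (-0.45 and -0.38). COA3 rose (0.22), a call with adjusted p-values of 0.15 without control replicate 1, 0.102 without control replicate 2, 0.0988 without knockdown replicate 1 and 0.1 without knockdown replicate 2. Of 3 complex III factors BCS1L rose and LYRM7 fell, and the BCS1L call had adjusted p-values of 0.076 without control replicate 2 and 0.0628 without knockdown replicate 2. Of 4 complex V factors ATPAF1 rose. In coenzyme Q synthesis 4 of 13 genes rose and 2 fell, with COQ8A, a kinase-like protein of this pathway, at 85.6, 81.3 and 86.7 against 47.9, 42.2 and 43.3 (log2 fold change -0.92, SE 0.05, limma adjusted p = 3.77e-10). COQ8A was far lower in all 3 knockdown libraries, and its log2 fold change was larger in size than that of any of the 116 genes. In iron-sulfur cluster assembly 6 of 14 genes rose and 3 fell (median 0.11), with IBA57 at 12.7, 13.9 and 12.1 against 22.0, 20.7 and 20.3 (log2 fold change 0.68, SE 0.08, limma adjusted p = 1.67e-06) and NFS1, the cysteine desulfurase, at -0.25. In the tricarboxylic acid cycle 1 of 13 genes rose and 6 fell (median -0.13), with MDH2, mitochondrial malate dehydrogenase, at 394, 397 and 391 against 293, 292 and 291 (log2 fold change -0.43, SE 0.03, limma adjusted p = 3.82e-09). DLST was the gene that rose, with adjusted p-values of 0.0982 without control replicate 1, 0.101 without control replicate 3 and 0.114 without knockdown replicate 3.

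Most subunits encoded in mitochondrial DNA fell. Of 13, 11 fell, MT-ND1 rose and MT-CO2 was not called. In all 92.3% were called, beside 60.9% of all genes. The median of their log2 fold changes was -0.32, from -0.69 for MT-ATP8 to 0.17 for MT-ND1, and their summed value fell from 51292 ± 512 to 42715 ± 1393 (SD, n = 3 each), 83.3% of control. MT-ATP8 had the smallest values of the 13, at 71.9, 71.1 and 76.5 against 52.0, 60.1 and 29.3, with knockdown replicate 3 far the lowest. The groups of MT-ND3, called lower, overlapped, at 562, 583 and 647 against 508, 479 and 569. MT-ND4 had values of 8869, 9005 and 8837 in control replicates 1 to 3 and 6335, 6441 and 6705 in knockdown replicates 1 to 3, with no overlap (log2 fold change -0.46, SE 0.03, limma adjusted p = 2.27e-09). MT-ND1 had values of 2356, 2350.2 and 2246 against 2562, 2536 and 2710.1 (log2 fold change 0.17, SE 0.03, limma adjusted p = 3.47e-04), and MT-CO2 was called lower without knockdown replicate 3 (adjusted p = 0.0402). The difference in change between the nuclear and the mitochondrial subunits was not tested. Of 13 transcriptional regulators of respiratory genes that were looked up, 12 were listed. Among these 12 regulators 7 were called lower, 2 higher and 3 neither way. Over all genes 27.8% were called lower and 33.0% higher. Whether the regulators differ from other genes in these shares was not tested. PPARGC1B, a PGC-1 family coactivator, had values of 54.1, 54.2 and 54.8 in control replicates 1 to 3 and 23.5, 27.4 and 25.4 in knockdown replicates 1 to 3. All 3 knockdown libraries lay far below the controls (log2 fold change -1.08, SE 0.06, limma adjusted p = 2.32e-10). MYC had values of 579.8, 577 and 567 in control replicates 1 to 3 and 249, 249 and 232 in knockdown replicates 1 to 3 (log2 fold change -1.24, SE 0.03, limma adjusted p = 3.24e-14), and ESRRA, a receptor coactivated by PGC-1 proteins, had values of 133, 120.4 and 137 against 92.8, 96.7 and 94.4 (log2 fold change -0.46, SE 0.05, limma adjusted p = 4.44e-07). YY1, TFB1M, PPRC1 and GABPA fell by smaller amounts (-0.29, -0.24, -0.18 and -0.18 on the log2 scale). Of these, TFB1M had adjusted p-values of 0.0881 without control replicate 2 and 0.0508 without knockdown replicate 3, PPRC1 of 0.067 without control replicate 1 and GABPA of 0.052 without knockdown replicate 1. TFAM, which packages and transcribes mitochondrial DNA, rose from 147 ± 3.96 to 172 ± 0.923 (SD, n = 3 each; log2 fold change 0.23, SE 0.04, limma adjusted p = 4.76e-05), and GABPB1, the partner of GABPA, rose too (0.30). NRF1 was not called, at 19.6, 21.1 and 18.4 against 19.3, 20.8 and 17.7 (log2 fold change -0.03, limma adjusted p = 0.724), and neither were TFB2M and GABPB2.

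**Figure D5:**
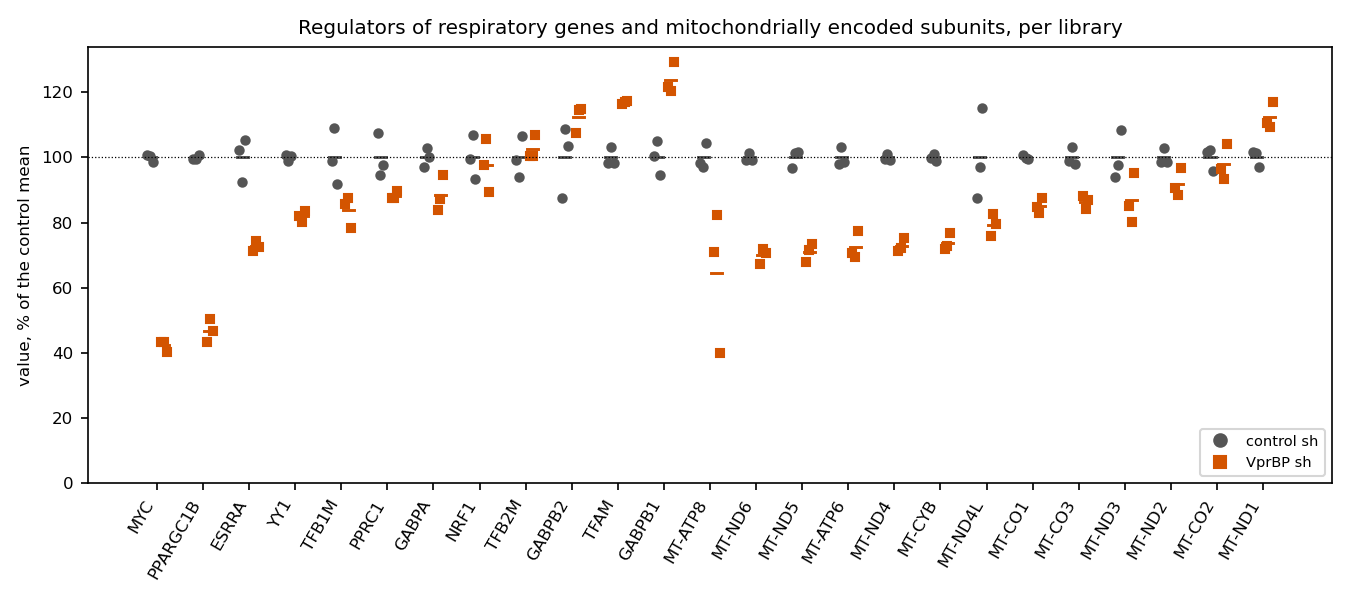
Value in each library as % of the control mean for 12 regulators of respiratory genes and the 13 mitochondrially encoded subunits. Grey circles are the 3 control sh libraries, orange squares the 3 VprBP sh libraries in the order of their numbers, and short lines group means. MYC and PPARGC1B have the lowest group means, TFAM and GABPB1 lie above all controls, and most mitochondrially encoded subunits lie below them.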

How the data were processed

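The values deposited by the authors are a scaled signal, although their table is named raw counts. Low values are spaced by one step per library, the value of 1 read (0.0254 to 0.0439), and the 75th percentile is 79.0 in all 6 libraries; 55.3% to 64.8% of values were whole multiples within 0.02 reads. Per the submitters' processing notes, Partek and hg38 were used. The sources used here name no aligner, counter, annotation, scaling step or strand setting. For each listed gene the highest estimated read number of any library was 150 or more. Deposited end coordinates were reduced by 1.

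Genes were tested with limma 3.58.1 (R 4.3.3, trend) on log2(value + 0.5), which understates changes of low genes, in all 6 libraries, adjusted by Benjamini-Hochberg over 12227 genes. Means are ± SD. The code was tested on simulated data. Genes named were DCAF1, up to 4 called genes per direction in each complex by absolute change (subunits and assembly factors apart), the most abundant gene of each complex, paralogue pairs, complex II, the cytochromes, up to 2 per direction of each further list, regulators and mitochondrially encoded subunits. Roles were assigned, and promoters to show picked, after values were seen. The members and lists were chosen with earlier results of these data known. Alternatives were 2 other scalings, a mean of at least 5, pseudocounts of 0.1 and 2, limma-voom on estimated reads, a replicate block, treat at a fold of 1.2 and each library left out. Some items are not reported here by name.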

Additional observations from a re-analysis of the deposited data

How the results depend on the processing

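Of the 53 called respiratory genes, 36 kept their call and direction under all 13 alternatives other than the fold threshold (17 higher, 19 lower), and none reversed. Testing against a fold of 1.2 left 2 respiratory genes higher and 1 lower, and 1144 and 1187 of all genes. Leaving out each library in turn gave 18 to 29 respiratory genes higher and 23 to 27 lower, and 3643 to 4017 and 3054 to 3388 of all genes. Median-ratio scaling moved the median of all genes from 0.02 to -0.00 and kept 49 of the 53 calls, and library-size scaling and limma-voom kept 50 each. The replicate number did not pair the libraries: deviations of libraries with the same number correlated at 0.018, -0.156 and -0.168. With the replicate block 47 of the 53 calls were kept, and 40.5% of the respiratory genes and 57.6% of all genes were called. The block ended the calls of the respiratory genes SDHAF1, UQCR11, UQCC5, NDUFS5, NDUFV3 and ATP5PO, and of COA3 and DLST among the other genes tested under it. Depth limits the low genes most: UQCC5, with a mean under 5, was not tested under that filter.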
